A study of Rattus norvegicus with 6 samples.

Results

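The genes described here were the 4 members of the Id family, Id1, Id2, Id3 and Id4, in oligodendrocyte precursor cells (OPCs) treated with ZJU-37 or with its solvent. They were found by name among the 32883 genes of the deposited count table, in which exactly 4 entries carried an Id name. All 4 passed the filter on low counts that left 14670 genes for testing. The cells were primary OPCs from the cerebral cortex of Sprague Dawley rats at postnatal day 0. They were grown for about 7 days as a mixed culture in medium with fetal bovine serum, shaken off, and cultured further in Neurobasal medium with B27 and N2. One group received 5 µM ZJU-37, a RIPK1 kinase inhibitor that differs from Nec-1s by an introduced amide bond, and the control group received an equal volume of DMSO, for 36 h according to the sample labels. The study's methods give a shorter treatment. Each group had 3 libraries of poly-A RNA, which the study calls biological repeats in one place and plate wells in another, so the p-values measure the spread between these cultures, which may be partly technical.

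Id proteins are helix-loop-helix proteins without a DNA-binding basic region. They pair with E proteins, the common partners of the tissue-specific bHLH factors, and the resulting dimers do not bind DNA, which holds back bHLH-driven differentiation. Id genes are classical targets of bone morphogenetic protein (BMP) signalling through SMAD1, SMAD5 and SMAD4. In the oligodendrocyte lineage, Id2 and Id4 are known as inhibitors of OPC differentiation, and BMP signalling is known to direct OPCs toward astrocytes. The comparison of ZJU-37 with DMSO therefore asks where the Id genes, their partners and their BMP inputs stood in OPCs under a compound that the study examined for its effect on OPC proliferation.

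The deposited table placed the genes at separate loci, and the genome build of its coordinates is not given in the sources used here. Id1 (ENSRNOG00000021750) was listed on the plus strand of chromosome 3, from 148215540 to 148216718, and Id2 (ENSRNOG00000007237) on the minus strand of chromosome 6, from 44348501 to 44363915. Id3 (ENSRNOG00000026124) was listed on the plus strand of chromosome 5, from 154489590 to 154491223. Id4 (ENSRNOG00000016099) was listed on the minus strand of chromosome 17, from 16692557 to 16695126. No other gene span in the table overlapped any of the 4.

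The upstream sequences are shown because the Id genes are regulated at their promoters and because they let the family be compared with its regulators, whose levels are given further on. All 4 were found in the RefSeq promoter table of build GRCr8, and the 211 bases printed for each lie upstream of every annotated transcript of the gene. They lie on their own strands at chr3:161671314-161671524 (plus) for Id1, chr6:47471035-47471245 (minus) for Id2, chr5:153656041-153656251 (plus) for Id3 and chr17:16598333-16598543 (minus) for Id4. Capitals mark matches, on either strand, to 5 searched motifs. These were the E-box CANNTG of bHLH factors, the SMAD-type GGCGCC, the ATF-type TGACG, the EGR1-type GCGTGGG and the GC box GGGCGG.
Id1: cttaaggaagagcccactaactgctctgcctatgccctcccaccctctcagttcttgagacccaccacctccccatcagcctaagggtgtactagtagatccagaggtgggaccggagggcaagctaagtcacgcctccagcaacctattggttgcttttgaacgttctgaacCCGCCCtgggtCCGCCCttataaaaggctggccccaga
Id2: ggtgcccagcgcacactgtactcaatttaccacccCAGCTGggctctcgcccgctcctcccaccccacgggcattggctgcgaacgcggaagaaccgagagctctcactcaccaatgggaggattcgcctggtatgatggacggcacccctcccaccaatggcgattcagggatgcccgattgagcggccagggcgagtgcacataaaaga
Id3: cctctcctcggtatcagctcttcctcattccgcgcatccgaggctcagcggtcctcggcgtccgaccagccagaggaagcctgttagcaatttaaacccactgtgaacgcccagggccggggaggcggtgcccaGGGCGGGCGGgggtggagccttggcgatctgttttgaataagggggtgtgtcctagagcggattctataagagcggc
Id4: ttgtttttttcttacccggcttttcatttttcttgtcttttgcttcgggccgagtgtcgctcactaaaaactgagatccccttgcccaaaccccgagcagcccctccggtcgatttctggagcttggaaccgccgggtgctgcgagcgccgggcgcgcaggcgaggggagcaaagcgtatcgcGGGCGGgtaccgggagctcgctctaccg

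The GC box was the motif most members shared. Id1 had 2 matches, both on the opposite strand, at bases 174 to 179 and 185 to 190 of the window. Id3 had 2 overlapping matches between bases 135 and 144, Id4 had 1 at bases 184 to 189, and Id2 had none. Id2 instead held the only E-box of the family, CAGCTG at bases 36 to 41. None of the 4 windows held the SMAD-type, ATF or EGR1-type letters. Among 33469 RefSeq windows of the same length, 26% held GGGCGG, 59.7% held CANNTG, 7.05% held GGCGCC, 14.7% held TGACG and 3.02% held GCGTGGG. The GC content was 56.4% for Id1, 61.6% for Id2, 62.1% for Id3 and 60.2% for Id4, against a median of 50.7% over these windows, some of which may hold transcribed bases. A match describes letters only and is not a measured site. Only these 211 bases of each gene were searched, so a missing match does not show that the gene lacks such a site.

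The libraries held between 13935865 and 24097927 counts, and levels are given as CPM, a gene's reads relative to all counted reads of its library. On this scale 3 counts equalled 0.124 to 0.215 CPM, a limit that covers counting error only. Library sizes were adjusted by the trimmed mean of M-values (TMM) normalization. Fold changes are log2 values of ZJU-37 over DMSO from edgeR's quasi-likelihood test, adjusted by the Benjamini-Hochberg method over all tested genes, with a threshold of 0.05. In this test 15.0% of all tested genes passed in either direction and 5.58% passed with a lower level under ZJU-37. Those called higher were 1383 of the 14670 tested genes. Both groups carry replicate numbers 1 to 3, and same-numbered libraries deviated together, so a fit with the replicate number as a block is given where it changes a call. With the block 32.1% of the tested genes passed in either direction and 15.9% passed with a lower level, while 2371 of the 14670 were called higher. The OPC markers Pdgfra, Cspg4, Olig1, Olig2, Sox10 and Ptprz1 were at 152 CPM or more in every library. Nkx2-2 and Gpr17 were at 185 CPM or more with DMSO and between 27.0 and 68.1 CPM with ZJU-37. The cultures also held astrocyte, microglia and neuron markers, and mature oligodendrocyte markers, with Mbp at 2275 CPM or more in every library. In bulk RNA of this kind, fewer cells of a type and less RNA per cell cannot be told apart.

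All 4 Id genes had lower means under ZJU-37, but none passed the test without the replicate block. Id3 differed most, followed by Id1, Id4 and Id2. Without the block edgeR called 0 of 4, although 2 of 4, Id1 and Id3, were below 0.05 before adjustment, as were 28.7% of all tested genes. DESeq2 called the same 2 of 4, where it called 16.9% of the 15260 genes it tested. With the block, 3 of 4 passed with a lower level, Id1, Id3 and Id4, where 15.9% of all tested genes did. The median log2 fold change was -0.42 over the 4 genes and -0.03 over all tested genes.

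Id3, which is among the BMP-induced members of the family, was measured at 103, 69.4 and 122 CPM in DMSO replicates 1, 2 and 3 and at 44.6, 45.4 and 74.1 CPM in the ZJU-37 libraries with the same numbers. The groups overlapped, since ZJU-37 replicate 3 lay above DMSO replicate 2, while within each numbered pair the ZJU-37 library was the lower. The means were 98.0 ± 26.5 CPM (SD, n = 3) with DMSO and 54.7 ± 16.8 CPM (SD, n = 3) with ZJU-37, which is 0.558 times the DMSO mean. ZJU-37 differed from DMSO by -0.84 on the log2 scale (SE 0.27, 95% confidence interval -1.499 to -0.18) with an edgeR adjusted p-value of 0.0965, so it did not pass. With the replicate block the log2 fold change was -0.84 (SE 0.12) with an adjusted p-value of 0.00550, and DESeq2 without the block gave 0.0106. The pairs differed by -1.21, -0.61 and -0.71 on the log2 scale. The two-sided exact permutation test over the 6 libraries gave p = 0.2, and with 3 against 3 it cannot go below 0.1.

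Id1, another BMP target and widely studied in stem and endothelial cells, was measured at 51.0, 43.4 and 58.9 CPM in the DMSO libraries and at 30.5, 36.6 and 41.3 CPM in the ZJU-37 libraries. It was the only member whose groups did not overlap, with every ZJU-37 library below every DMSO library, an arrangement found for 16.2% of all tested genes. The means were 51.1 ± 7.72 CPM (SD, n = 3) and 36.1 ± 5.39 CPM (SD, n = 3), a ratio of 0.706. The log2 fold change was -0.50 (SE 0.15, 95% confidence interval -0.85 to -0.15) with an edgeR adjusted p-value of 0.0714. The block gave -0.50 (SE 0.09) with an adjusted p-value of 0.00368, and DESeq2 gave an adjusted p-value of 0.0197. The pairs differed by -0.74, -0.25 and -0.51, and the two-sided exact permutation test gave p = 0.1, the smallest it can give.

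Id4, an inhibitor of oligodendrocyte differentiation, was the least abundant member, at 16.4, 13.4 and 18.5 CPM with DMSO and 11.0, 12.2 and 15.0 CPM with ZJU-37. The ranges overlapped through ZJU-37 replicate 3 and DMSO replicate 2, the same libraries as for Id3. The means were 16.1 ± 2.55 CPM (SD, n = 3) and 12.7 ± 2.02 CPM (SD, n = 3), with a log2 fold change of -0.34 (SE 0.17, 95% confidence interval -0.74 to 0.06) and an edgeR adjusted p-value of 0.245. The block gave -0.34 (SE 0.11) with an adjusted p-value of 0.0447, and this call was lost when any pair was left out of the blocked fit, where the adjusted p-value was 0.167, 0.0507 or 0.185. The pairs differed by -0.56, -0.14 and -0.31, and the two-sided exact permutation p was 0.2.

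Id2, which links the family to the retinoblastoma proteins, differed least. It was measured at 61.2, 45.6 and 54.7 CPM with DMSO and at 45.0, 44.3 and 52.0 CPM with ZJU-37, so that only DMSO replicates 1 and 3 lay above all of the ZJU-37 libraries. The means were 53.8 ± 7.85 CPM (SD, n = 3) and 47.1 ± 4.27 CPM (SD, n = 3). The log2 fold change was -0.19 (SE 0.12, 95% confidence interval -0.48 to 0.10) with an edgeR adjusted p-value of 0.372, and the block gave 0.134. Most of the difference came from the pair of replicate 1, at -0.44, against -0.04 and -0.07 for the other pairs, and the two-sided exact permutation p was 0.2. The interval leaves room for a decrease of up to 0.48 on the log2 scale, so an absence of change was not shown.

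**Figure D1:**
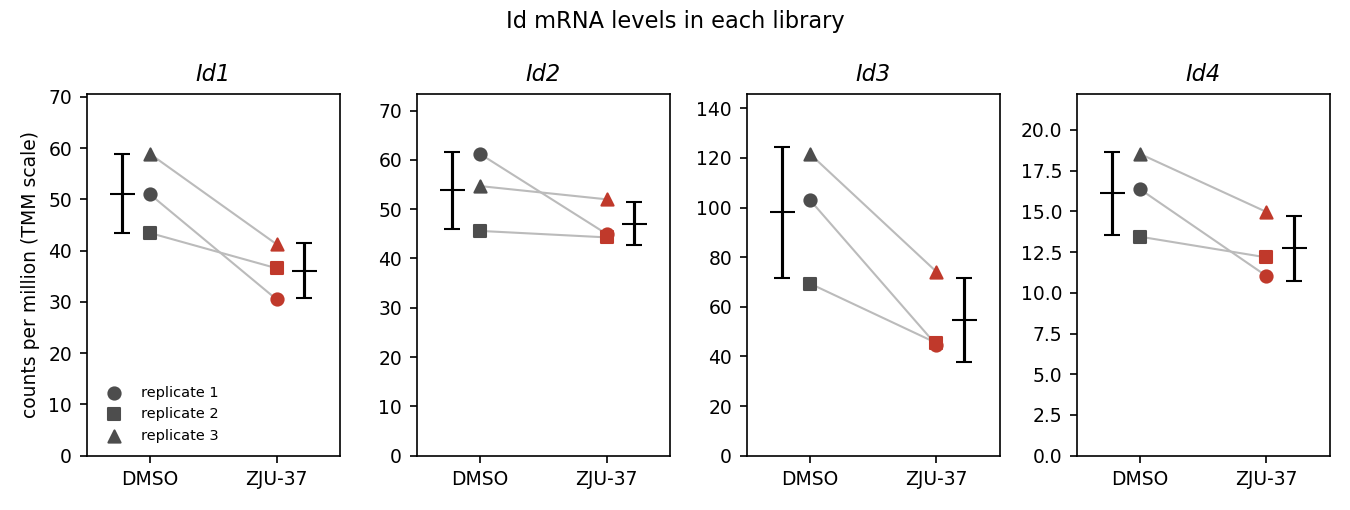
Each panel plots the level of an Id gene in CPM on the TMM scale (linear axis from 0) for the 3 DMSO and 3 ZJU-37 libraries. Marker shapes give the replicate number, grey lines join same-numbered libraries, and black bars give the mean with its SD. Every grey line slopes down, and the groups are apart for Id1 alone.

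**Figure D2:**
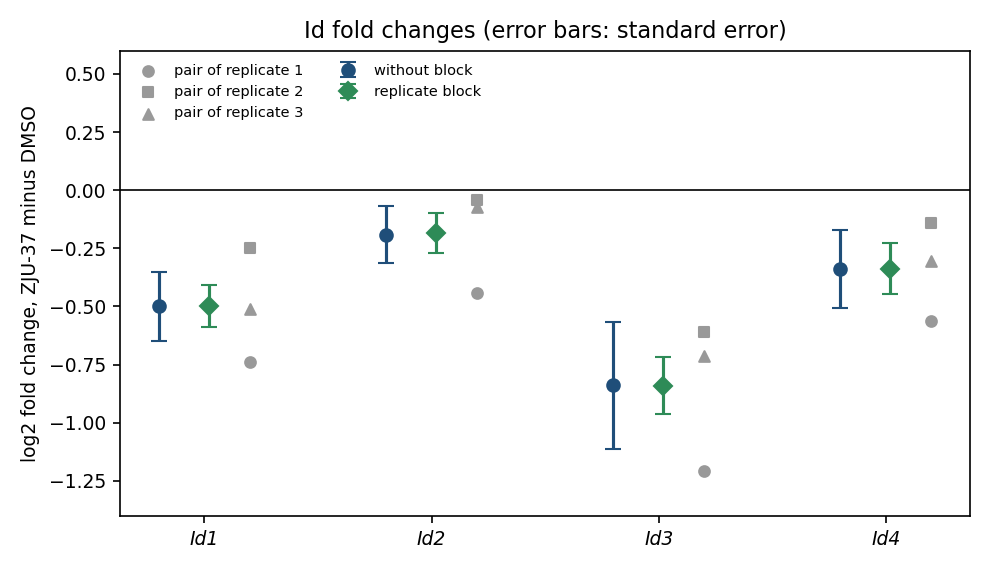
The plot gives the log2 fold change of ZJU-37 over DMSO for each Id gene without the block (circles) and with it (diamonds), with standard errors, beside the difference within each numbered pair (grey). The estimates of both fits nearly coincide, from -0.84 for Id3 to about -0.19 for Id2, and the error bars are shorter with the block.

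Levels of different genes can be compared only per gene length, and are given here as CPM per kilobase. On this scale the order was Id3, Id1, Id2, Id4 in 6 of 6 libraries, and the deposited FPKM values gave the same order in 6 of 6. With DMSO the levels were 97.4 ± 26.3 (SD, n = 3) for Id3, 53.3 ± 8.06 for Id1, 36.1 ± 5.27 for Id2 and 9.91 ± 1.57 CPM per kilobase for Id4, and no neighbouring ranges overlapped. With ZJU-37 they were 54.4 ± 16.7 for Id3, 37.7 ± 5.63 for Id1, 31.6 ± 2.86 for Id2 and 7.82 ± 1.24 CPM per kilobase for Id4. In the ZJU-37 libraries the ranges of Id1 (31.8 to 43.1) and Id2 (29.7 to 34.9) overlapped, so that these neighbours did not separate beyond their spread. By its mean over all libraries, Id3 stood above 92.1% of the tested genes, Id1 above 85.5%, Id2 above 79.9% and Id4 above 42.9%.

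Summed over the family, Id mRNA came to 207, 153 and 230 CPM per kilobase in the DMSO libraries and to 113, 120 and 161 CPM per kilobase in the ZJU-37 libraries. The means were 197 ± 39.6 and 131 ± 25.7 (SD, n = 3 each), and ZJU-37 replicate 3 lay above DMSO replicate 2, as for Id3. Id3 made up 49.0% ± 3.75 of the sum with DMSO and 40.8% ± 4.42 with ZJU-37 (SD, n = 3 each). The share of Id2 was 18.6% ± 2.31 with DMSO and 24.4% ± 2.51 with ZJU-37, that of Id1 was 27.3% ± 2.02 and 28.9% ± 2.53, and that of Id4 was 5.07% ± 0.288 and 5.98% ± 0.246.

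**Figure D3:**
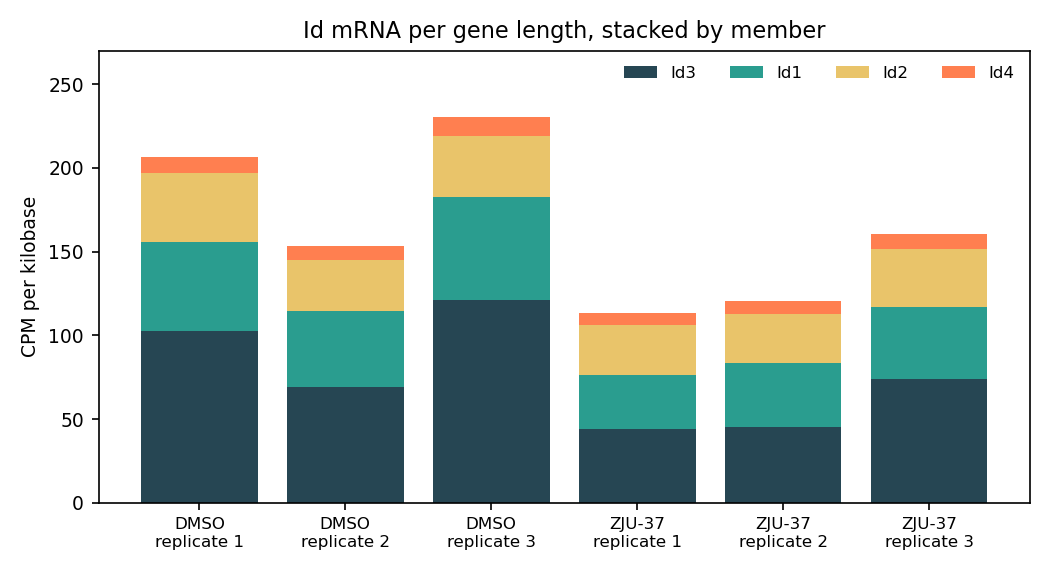
Stacked bars give the CPM per kilobase of Id3, Id1, Id2 and Id4 in each of the 6 libraries, on a linear axis that starts at 0. The total ranges from 113 in ZJU-37 replicate 1 to 230 in DMSO replicate 3, and Id3 is the thickest layer in every library.

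Whether the members differed unequally was examined through the log2 ratio of each pair of members within a library. These ratios need no normalization between libraries. The ratio of Id2 to Id3 was higher with ZJU-37 by 0.66, and no library of either group fell into the range of the other. The ratio of Id3 to Id4 differed by -0.51, that of Id1 to Id2 by -0.31 and that of Id1 to Id4 by -0.16, each without overlap. The ratio of Id1 to Id3 (0.34) and that of Id2 to Id4 (0.15) overlapped between groups. Of the 6 pairs compared, the 4 without overlap had a two-sided exact permutation p of 0.1 and an adjusted p of 0.15 over the 6 pairs, and the others had adjusted p-values of 0.24 and 0.4, so no ratio could pass 0.05 in this unpaired exact test. Within the numbered pairs each ratio differed in a single direction, for example by 0.77, 0.57 and 0.64 for Id2 to Id3 and by -0.64, -0.47 and -0.41 for Id3 to Id4, and these paired differences were not tested.

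Likeness to other genes was measured as the root mean square distance between log2 CPM profiles over the 6 libraries, each centred on its mean, among the 10300 genes that averaged 10 CPM or more. The profile nearest to Id3 was that of Atoh8 (0.082), a bHLH factor gene that is itself a BMP-SMAD target, followed by Mlc1 (0.13), a membrane protein gene of astrocytes, and Acsbg1 (0.15), an acyl-CoA synthetase gene. For Id1 the nearest were Cavin1 (0.059), a caveolar coat protein gene, Chi3l1 (0.060), a chitinase-like secreted protein gene, and PVR (0.068), a nectin-like adhesion receptor gene. Id2 was nearest to Limk2 (0.034), a LIM kinase gene, Pcdhgb7 (0.042), a protocadherin gene, and Slc3a1 (0.046), a subunit gene of an amino acid transporter. Id4 was nearest to Birc2 (0.050), an inhibitor of apoptosis gene, Cavin1 (0.057) and AABR07044362.4 (0.063). Within the family, Id1 and Id4 were the nearest to each other (0.092), and Id2 and Id3 the farthest apart (0.40). These distances describe 6 libraries that share their depth and culture differences, and they carry no test.

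Of the E protein genes, whose products pair directly with Id proteins, Tcf3 differed in the direction opposite to the Id genes. Tcf3, which encodes E12 and E47, rose from 108, 111 and 102 CPM to 138, 136 and 138 CPM, with a log2 fold change of 0.36 (SE 0.06) and an edgeR adjusted p-value of 0.00664. Tcf12, which encodes HEB, was measured at 139, 140 and 130 CPM with DMSO and at 163, 140 and 140 CPM with ZJU-37 (log2 fold change 0.11, adjusted p = 0.418 in edgeR). Tcf4, which encodes E2-2, had a log2 fold change of -0.01 (adjusted p = 0.967 in edgeR) whose sign turned under another scaling of the libraries. Thus 1 of 3 E protein genes was called higher and 0 lower, without and with the block. Per kilobase, the 3 E protein genes summed to 114, 112 and 107 CPM with DMSO and to 133, 120 and 121 CPM with ZJU-37. The ratio of summed Id mRNA to summed E protein mRNA was 1.82, 1.37 and 2.15 with DMSO and 0.851, 1.005 and 1.33 with ZJU-37. Its means were 1.78 ± 0.391 and 1.06 ± 0.245 (SD, n = 3 each), and the groups did not overlap, although ZJU-37 replicate 3 and DMSO replicate 2 lay close together.

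Of the class II bHLH genes, whose products act as dimers with E proteins, 10 of 20 were expressed enough to be tested, and 2 were called higher and 1 lower. Their median log2 fold change was -0.23. Olig1, a lineage factor of oligodendrocytes, rose from 874, 795 and 758 CPM to 1470, 1106 and 1201 CPM (log2 fold change 0.64, adjusted p = 0.0150 in edgeR), a call that was lost without DMSO replicate 2 or without DMSO replicate 3, with adjusted p-values up to 0.0619. Atoh8, the gene nearest to Id3 in profile, was at 18.1, 13.2 and 20.8 CPM with DMSO and fell to 7.30, 7.37 and 11.9 CPM with ZJU-37. Its log2 fold change was -0.97 (SE 0.25) with an edgeR adjusted p-value of 0.0499, which the block moved to 3.08e-04. This call was lost without DMSO replicate 1, DMSO replicate 3, ZJU-37 replicate 1 or ZJU-37 replicate 2, where the adjusted p-value reached 0.145. With the block 2 class II genes were called higher and 3 lower.

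The Hes and Hey genes encode bHLH-type factors, several of which are Notch-induced repressors of differentiation, and did not yield a call. Of 9 genes 7 were tested, 0 passed in edgeR in either direction without or with the block, and 0 did so before adjustment or in DESeq2. Their median log2 fold change was -0.12. Hes6, which is known to antagonize Hes1 and had the highest mean CPM of them, had a log2 fold change of -0.12 (adjusted p = 0.428 in edgeR).

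Among other proteins that Id proteins are known to bind, 8 of 11 genes were tested, and 2 were called higher and 1 lower. The retinoblastoma family gene Rbl1, which encodes p107, rose from 15.1, 17.8 and 14.8 CPM to 30.0, 26.8 and 26.2 CPM, with a log2 fold change of 0.79 and an edgeR adjusted p-value of 0.00369. Rbl2, which encodes p130, fell by 0.28 on the log2 scale (adjusted p = 0.0206 in edgeR), and Ets1, an ETS family factor gene, rose by 0.39 (adjusted p = 0.0158 in edgeR). Both of these calls depended on single libraries. Rbl2 was lost without DMSO replicate 1, DMSO replicate 2, ZJU-37 replicate 2 or ZJU-37 replicate 3, with adjusted p-values up to 0.113, and Ets1 without DMSO replicate 1, DMSO replicate 2 or ZJU-37 replicate 3, with adjusted p-values up to 0.0669. With the block 4 of the 8 were called higher and 1 lower.

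The genes that set the lifetime of Id proteins were mostly higher with ZJU-37, at 3 of 4 called higher and 0 lower. Of all 14670 tested genes, 1383 were called higher. Usp1, the deubiquitinase that stabilizes Id proteins, rose from 70.3, 66.8 and 67.2 CPM to 114, 108 and 112 CPM, a log2 fold change of 0.71 (SE 0.06) with an edgeR adjusted p-value of 5.07e-04. Fzr1, which encodes the Cdh1 activator of the anaphase-promoting complex and directs Id proteins to degradation, rose from 72.0, 71.3 and 70.2 CPM to 104, 96.2 and 98.7 CPM (log2 fold change 0.49, adjusted p = 0.00196 in edgeR). Genes of opposite known effect on Id proteins thus both rose. Wdr48, the cofactor of USP1, rose by 0.23 on the log2 scale (adjusted p = 0.0403 in edgeR), a call that was lost whichever library was left out, with adjusted p-values up to 0.147. No Id protein was measured.

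The BMP ligand genes differed in opposite directions. Bmp4, the ligand best known for directing OPCs toward astrocytes, fell from 103, 41.9 and 58.0 CPM to 8.60, 5.58 and 6.86 CPM, with a log2 fold change of -3.27 (SE 0.37) and an edgeR adjusted p-value of 0.00227. Its lowest DMSO library was well above its highest ZJU-37 library. Bmp2 was much lower in level, at 3.87, 4.18 and 3.88 CPM with DMSO, and fell to 1.68, 2.28 and 2.36 CPM (log2 fold change -0.91, adjusted p = 0.0275 in edgeR), a call that was lost whichever library was left out, with adjusted p-values up to 0.0949. Bmp7 rose from 2.05, 1.53 and 1.86 CPM to 6.54, 4.32 and 4.84 CPM (log2 fold change 1.53, adjusted p = 0.00664 in edgeR). Of 12 ligand genes 6 were tested, with 1 called higher and 2 lower and a median log2 fold change of -0.24. The block called 1 higher and 3 lower, adding Bmp6. Bmp6 was at 30.8, 33.4 and 45.2 CPM with DMSO and at 19.5, 26.9 and 38.3 CPM with ZJU-37. Its adjusted p-values were 0.433 in edgeR and 0.00882 in the blocked fit, where its log2 fold change was -0.39.

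The receptor and SMAD genes did not pass without the block. Of 10 receptor and co-receptor genes 9 were tested and 0 passed in edgeR in either direction, with or without the block, before adjustment or in DESeq2. Their median log2 fold change was 0.04. The type I receptor gene Bmpr1a, which had the highest mean CPM without regard to gene length, had a log2 fold change of -0.11 (adjusted p = 0.659 in edgeR). Of 4 SMAD genes 3 were tested and 0 passed in edgeR or DESeq2, with a median of 0.20. Before adjustment 2 of them, Smad4 and Smad5, were below 0.05, and the block called these 2 higher. Smad4, which encodes the common SMAD and had the highest mean CPM of these, had a log2 fold change of 0.20, and its adjusted p-values were 0.142 in edgeR and 0.0317 in the blocked fit.

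Of 14 genes for BMP antagonists and inhibitory components, 2 were called higher and 0 lower, with a median log2 fold change of -0.19, and the block called 2 higher and 4 lower. DESeq2 called 5 of the 14, adding Nog, Smad7 and Smurf1 with lower levels. Twsg1, which encodes a secreted modulator that binds BMPs together with chordin, rose from 36.1, 32.0 and 39.2 CPM to 74.0, 61.6 and 66.8 CPM (log2 fold change 0.91, adjusted p = 0.00183 in edgeR). Nbl1, which encodes a secreted DAN family antagonist, rose by 0.42 (adjusted p = 0.0185 in edgeR), a call that was lost without DMSO replicate 2, ZJU-37 replicate 1 or ZJU-37 replicate 3, with adjusted p-values up to 0.0815.

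The other known BMP-SMAD targets are genes that respond to the same input as the Id genes. Of 9 such genes 6 were tested, all 6 had a negative log2 fold change and 1, Atoh8, was called lower. Their median was -0.49, against -0.42 for the Id genes and -0.03 over all tested genes. All 6 were also counted in lists above, so this list adds no separate genes. Smad6, Smad7, Bambi and Nog were among the antagonists, Atoh8 among the class II genes and Hey1 among the Hes and Hey genes. The block called 3 of the 6 lower. Hey1, the weakest of them at -0.03, changed its sign under another scaling of the libraries. Smad7, an inhibitory SMAD gene that was chosen for mention after its values were seen, was at 31.1, 27.2 and 25.0 CPM with DMSO and at 20.2, 22.7 and 16.5 CPM with ZJU-37. Its log2 fold change was -0.49, and its adjusted p-values were 0.0678 in edgeR and 0.00356 in the blocked fit, close to the values of Id1. Nog, the gene of the secreted antagonist noggin and also chosen after its values were seen, had a log2 fold change of -0.98, and adjusted p-values of 0.108 in edgeR and 0.00651 in the blocked fit.

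**Figure D4:**
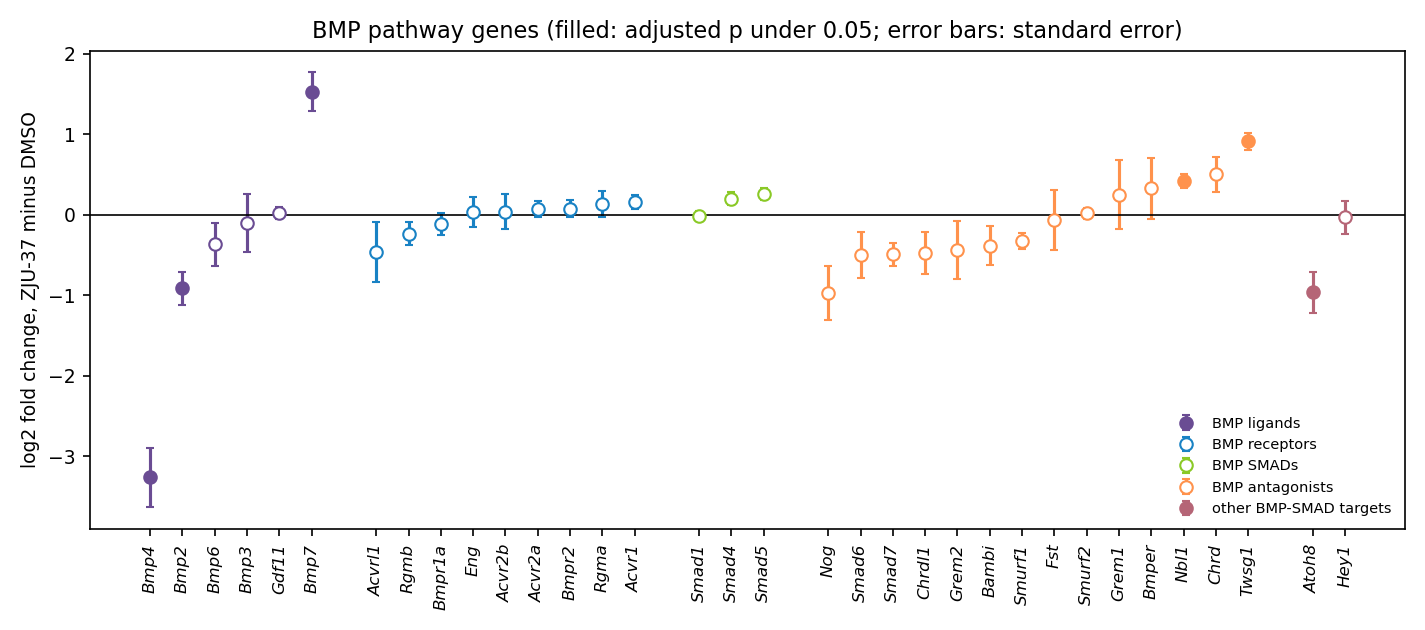
The plot gives the log2 fold change of ZJU-37 over DMSO, with its standard error, for each tested BMP ligand, receptor, SMAD, antagonist and other BMP-SMAD target gene, where genes in more than a single list are drawn once. Filled symbols passed an adjusted p-value of 0.05 in edgeR. Bmp4 lies lowest at -3.27 and Bmp7 highest at 1.53, while the receptor genes lie between -0.46 (Acvrl1) and 0.15 (Acvr1).

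Of 4 other genes for regulators of Id transcription, 2 were called higher and 0 lower. Egr1, an immediate early factor gene, rose from 51.0, 49.3 and 54.8 CPM to 173, 255 and 240 CPM (log2 fold change 2.11, adjusted p = 4.39e-04 in edgeR). Mycn, which encodes N-Myc, an activator of Id2, rose by 0.51 (adjusted p = 0.0213 in edgeR), a call that was lost when any DMSO library or ZJU-37 replicate 2 was left out, with adjusted p-values up to 0.0774. Id2 itself, at a log2 fold change of -0.19, did not pass.

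Genes of cell cycle inhibitors and of oligodendrocyte differentiation were also examined. Of 5 cell cycle inhibitor genes, 0 were called higher and 1 lower. Cdkn1c, which encodes p57, fell from 175, 189 and 164 CPM to 14.3, 9.80 and 10.3 CPM (log2 fold change -3.95, adjusted p = 1.32e-04 in edgeR). Of 14 oligodendrocyte differentiation genes, 0 were called higher and 6 lower, with a median log2 fold change of -1.02, and DESeq2 called 11 of 14 and the block 10 of 14, all lower, against 16.9% and 32.1% of all genes in either direction. The largest decreases among those called were those of Bcas1 (-2.18), a marker gene of newly formed oligodendrocytes, the transcription factor genes Nkx2-2 (-1.74) and Myrf (-1.69), and Zfp488 (-1.45), with edgeR adjusted p-values of 3.80e-04, 3.20e-04, 0.00208 and 0.00389. Sox10, another of the 6 called lower, was lost without any DMSO library, ZJU-37 replicate 2 or ZJU-37 replicate 3, with adjusted p-values up to 0.155. Of the 14 differentiation genes, 13 had a negative log2 fold change. A link between these genes and the Id levels was not tested.

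The summed levels of marker genes of other cell types are given beside Id3. The 9 astrocyte marker genes summed to 1530, 1087 and 1735 CPM with DMSO and to 1176, 954 and 1421 CPM with ZJU-37. Their order over the libraries matched that of Id3 within the DMSO group, and within the ZJU-37 group replicates 1 and 2 were in the opposite order. Of these 9 genes, 8 had a negative log2 fold change, with a median of -0.28, and 1, Aldoc, was called lower (log2 fold change -0.86, adjusted p = 0.00235 in edgeR), while the block called 5 lower and 1 higher. Among the defining markers, Gfap had a log2 fold change of -0.75, with adjusted p-values of 0.214 in edgeR and 1.55e-04 in the blocked fit. Aqp4 was at -0.96, with adjusted p-values of 0.223 in edgeR and 2.67e-06 in the blocked fit, whereas Slc1a3 was at -0.02 with a sign that turned under another scaling. The 9 microglia marker genes summed to between 1418 and 2344 CPM with DMSO and to between 1033 and 2168 CPM with ZJU-37, with 0 called by edgeR or DESeq2 or before adjustment and 2 called lower with the block. The 7 neuron marker genes summed to between 912 and 1258 CPM with DMSO and to between 821 and 1212 CPM with ZJU-37, with 0 called by edgeR or DESeq2, 1 below 0.05 before adjustment and 2 lower with the block. Endothelial markers summed to between 15.0 and 18.2 CPM with DMSO and to between 11.0 and 14.8 CPM with ZJU-37, and Cldn5 was at 0 in all libraries. Mural and fibroblast markers summed to 60.7, 48.8 and 114 CPM with DMSO and to 28.2, 46.1 and 79.4 CPM with ZJU-37, which is the order of the libraries for Id3 in both groups. In this list 6 of 6 tested genes had a negative log2 fold change, and 0 of these or of the endothelial genes passed in edgeR or DESeq2 or before adjustment, while the block called 1 of each list lower. The part of any of these cells in the Id levels was not tested.

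The oligodendrocyte lineage markers moved in both directions. Of 8 OPC marker genes found, 4 were called higher (Pdgfra, Cspg4, Olig1 and Ptprz1) and 3 lower (Sox10, Nkx2-2 and Gpr17). The Sox10 call was lost without any DMSO library, ZJU-37 replicate 2 or ZJU-37 replicate 3, with adjusted p-values up to 0.155. Ptprz1 was lost without DMSO replicate 2, DMSO replicate 3 or ZJU-37 replicate 3 (up to 0.0897). Pdgfra and Olig1 were lost without DMSO replicate 2 or DMSO replicate 3 (up to 0.0775). Of 8 mature oligodendrocyte marker genes, edgeR called 0 and 7 had a negative log2 fold change. DESeq2 called 4, 4 were below 0.05 before adjustment, and the block called 4 lower. Their summed level was between 8482 and 18524 CPM with DMSO and between 3750 and 8589 CPM with ZJU-37. The part of a changed mix of lineage stages in the Id levels was not tested.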

How the data were processed

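RNA from 6 cultures, 3 treated with ZJU-37 and 3 with DMSO, was sequenced as paired-end poly-A libraries. Per the labels, the authors used HISAT2 2.0.5, StringTie 1.3.3b and featureCounts 1.5.0. The genome build and strand setting are not given in the sources used here. The authors deposited raw counts per gene, neither normalized nor filtered, and FPKM values that the authors made from them. The columns of the authors' own DESeq2 comparison (fold changes and p-values) were not used. Read alignment was not repeated.

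Genes with low counts were removed with filterByExpr. The remaining counts were normalized by TMM (factors 0.981 to 1.04) and fitted over all 6 libraries with edgeR 4.0.16 (robust glmQLFit, glmQLFTest) in R 4.3.3, and p-values were adjusted over the 14670 tested genes. The script was tested on simulated data. Confidence intervals were 95% intervals from the fit, and CPM per kilobase used the deposited gene length. Pairs of members were compared with exact permutation tests. The pairing rests on the numbers in the sample titles. Across genes, departures from the group mean correlated between libraries of equal number at r = 0.39, 0.31 and 0.33, and for unequal numbers r was between -0.27 and -0.01. Genes are not independent replicates.

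The alternatives were DESeq2 1.42.0, limma 3.58.1 (voom, or log2(FPKM + 1) and log2(FPKM + 0.1)), other normalizations, no filter or a minimum of 10 counts in all libraries, thinning to the smallest library, the replicate block and leaving out each library. Blocked fits without each pair were chosen after seeing the data. The members and gene lists were chosen with earlier results of these data known. Named were the Id and E protein genes, the called genes of each list (at most 4, by fold change) or, where none passed, its gene with the highest mean CPM, the 3 nearest profiles of each Id gene, and markers. A called list gene is not reported here by name.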

Additional observations from a re-analysis of the deposited data

How the results depend on the processing

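All 4 Id genes had a negative log2 fold change in each of the 20 alternatives. It ranged from -0.62 to -0.38 for Id1, from -0.30 to -0.05 for Id2, from -1.10 to -0.65 for Id3 and from -0.45 to -0.22 for Id4. Id1 and Id3 passed in 5 alternatives each, Id4 in 1 and Id2 in none. With DESeq2 Id1 was at -0.50 and Id3 at -0.84, both past the threshold. With the replicate block Id1 (-0.50), Id3 (-0.84) and Id4 (-0.34) passed. In blocked fits without the pair of replicate 1, 2 or 3, added after seeing the data, Id1 was at -0.38, -0.62 and -0.49 (adjusted p = 5.77e-04, 0.00136 and 0.0467) and Id3 at -0.66, -0.95 and -0.91 (adjusted p = 5.39e-08, 0.00119 and 0.0122). Leaving out a single library without the block, no Id gene passed, with adjusted p-values of 0.0622 to 0.190 for Id1, 0.160 to 0.674 for Id2, 0.0510 to 0.245 for Id3 and 0.173 to 0.535 for Id4.

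Over all genes the count of calls was 2201, 4705 with the replicate block, and 4885, 3373 and 2461 in the blocked fits without each pair. It ran from 1306 (without DMSO replicate 2) to 1927 when a single library was left out, and was 1351 without ZJU-37 replicate 3. Of the called genes 62.8% were higher with ZJU-37, and 50.4% with the block. Over the pathway lists 24 genes were called, and 40 with the block. The cause of these shifts was not tested. The differences of the ratios between members kept their signs when single libraries were left out, and no scaling moved the median of all genes by over 0.1. Depth was at least 564 counts per library for Id1, Id2 and Id3 and at least 204 for Id4, and 3 libraries per group limit what any single-gene comparison can show.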
